A study of Mus musculus with 2 samples.

Results

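Amino acid breakdown in mouse liver was followed through 38 genes, chosen by symbol from a given list and found on the arrays through the RefSeq accession of each probe, among 20284 named genes. They were put into 9 groups by amino acid: 4 genes each for tyrosine, for tryptophan, for histidine and for alanine, aspartate and glutamine, 5 for serine and glycine, 3 for proline and ornithine, 6 for methionine and cysteine, 1 for lysine and 7 for the branched-chain amino acids. All 38 were measured in every pool. Liver RNA came from CREBH knockout (KO) mice fasted for 24 h, wild-type (WT) mice fasted for 24 h, KO mice fed ad lib and WT mice fed ad lib, all on the C57B6J background. The KO is a CREBH null. The gene Creb3l3 encodes CREBH, which hepatocytes make as a precursor anchored in the endoplasmic reticulum membrane and which is cut free to act on transcription when food is withheld. Each of these 4 groups was a single pool of liver RNA, measured once, with the KO pool in the Cy5 channel and the WT pool in the Cy3 channel of 1 two-colour array per feeding state.

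With 1 pool per group and no dye swap there was no test. Differences are described by their size, and genes count as higher or lower if they were at least 2-fold apart, which is 1 on the log2 scale. A KO over WT ratio also holds any difference between the dyes, and dye and genotype cannot be told apart. Fasted over fed values compare like dyes, but across arrays. Each feeding state had its own array, so in these values feeding and array cannot be told apart. Probes printed up to 10 times give the technical spread: the median SD between spots of a log2 value was 0.08 or 0.09 in these comparisons. That spread holds no difference between mice or between pools. How many mice entered a pool, and their age and sex, are not given in the sources used here. Creb3l3 itself was at log2 12.95 in the fasted KO pool, against 15.03 in the fasted WT pool, and at 13.12 in the fed KO pool, against 14.00 in the fed WT pool. The sources used here do not say whether its probe lies in the deleted part, so this signal says nothing about the allele. All 12 hepatocyte markers, such as Alb and Ttr, were well above background in all 4 pools, with a median KO over WT difference of 0.16 fasted and 0.08 fed. Single markers ran from Apob at -0.63 to Cyp2e1 at 0.33 fasted, and from Alb at -0.37 to Cyp2e1 at 0.47 fed. In bulk liver RNA, fewer cells of a type and less RNA per cell cannot be told apart.

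The liver takes up most amino acids that arrive from the gut or from muscle protein. It strips their nitrogen, which goes to urea, and turns the carbon into glucose, ketone bodies or energy. In fasting, glucagon and glucocorticoids are known to raise several of these enzymes, Tat, Sds and Tdo2 being classic examples. Most of the 38 genes are typical of hepatocytes, while the branched-chain aminotransferase Bcat2 is known mainly from other tissues. Their probes were bright: 28 of the 38 had a mean signal above log2 12, a level that 6.30% of named genes passed. Signals ran between 7.11 and 17.02, and since probes differ in how well they bind, no level of 1 gene is set against another's.

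The promoters of the genes that were higher in fasted liver are shown because those genes were the furthest apart between the feeding states. RefSeq sequences on build GRCm38.p6 were at hand for 31 of the 38 genes and for 5 of the 6 higher ones, Mat1a being the exception. Each window is the 250 bases before the transcription start, 5′ to 3′ on the gene's own strand, which is the minus strand for all 5. The windows lie at chr3:81975729-81975978 for Tdo2, chr6:23132987-23133236 for Aass, chr19:43524606-43524855 for Got1, chr2:155074498-155074747 for Ahcy and chr7:132576399-132576648 for Oat. Capitals mark matches to the motifs searched, and the Ahcy and Oat windows hold none.
Tdo2: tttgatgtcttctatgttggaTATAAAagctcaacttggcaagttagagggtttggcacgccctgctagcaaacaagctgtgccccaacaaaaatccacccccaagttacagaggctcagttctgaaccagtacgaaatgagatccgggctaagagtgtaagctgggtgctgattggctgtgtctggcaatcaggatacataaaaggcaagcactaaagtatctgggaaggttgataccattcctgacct
Aass: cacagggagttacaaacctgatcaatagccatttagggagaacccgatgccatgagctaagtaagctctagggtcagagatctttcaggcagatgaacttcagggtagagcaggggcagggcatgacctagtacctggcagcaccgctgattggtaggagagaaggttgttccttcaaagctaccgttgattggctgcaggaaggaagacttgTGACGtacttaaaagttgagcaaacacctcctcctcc
Got1: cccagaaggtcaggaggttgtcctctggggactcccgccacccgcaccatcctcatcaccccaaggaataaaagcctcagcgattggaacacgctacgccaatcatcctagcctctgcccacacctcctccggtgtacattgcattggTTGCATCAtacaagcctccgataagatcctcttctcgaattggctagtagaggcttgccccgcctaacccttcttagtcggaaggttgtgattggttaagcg
Ahcy: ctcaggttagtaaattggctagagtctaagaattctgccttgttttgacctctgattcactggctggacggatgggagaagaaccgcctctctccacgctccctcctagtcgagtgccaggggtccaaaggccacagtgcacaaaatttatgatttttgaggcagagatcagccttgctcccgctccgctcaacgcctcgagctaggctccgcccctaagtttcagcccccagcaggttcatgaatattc
Oat: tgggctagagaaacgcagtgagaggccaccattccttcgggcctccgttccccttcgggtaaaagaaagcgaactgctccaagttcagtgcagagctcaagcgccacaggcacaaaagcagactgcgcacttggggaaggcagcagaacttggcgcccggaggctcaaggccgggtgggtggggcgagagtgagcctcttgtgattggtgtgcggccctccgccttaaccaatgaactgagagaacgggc
The 8 motifs were searched on both strands from 250 bases before to 50 after the start. The full cAMP response element TGACGTCA, the kind of site that CREB-type factors are known to bind, was in 0 of the 31 member promoters and in 2.69% of genes on the array. Its core TGACG, which lies inside the full element, was in 3 members, Aass at -37, Ftcd at -136 and Oat at 33, and in 27.7% of genes. The amino acid response core TGATGNAA was in 1 member, Got1, on the other strand at -102, and in 3.76% of genes. TATAAA was in 4 members, Tdo2, Hal, Hgd and Ftcd, and in 14.2% of genes. The E-box CACGTG was in Cbs and Mccc2 and in 9.49% of genes, and the FOXO core GTAAACA was in Hibadh and in 3.5%. The full palindromic glucocorticoid response element was in 0 members and in 0.0497% of genes, and the direct repeat bound by PPAR in 0 members and in 0.0683%. Member windows had a median GC content of 55.3%, against 52.7% over all promoters. A match to these letters is a description of the window, not a binding site.

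Fasting set apart the same 6 of the 38 genes in KO and in WT liver: Mat1a, Ahcy, Tdo2, Aass, Got1 and Oat were each at least 2-fold higher in the fasted pool. That was 15.8% of the members in either genotype, where 2.59% of 11785 measured genes were as much higher in KO liver and 2.36% of 11441 in WT liver. Among the 28 members above log2 12, which leave out Ahcy, 5 were as much higher in each genotype (17.9%), and among other genes above log2 12 it was 99 of 1248 in KO liver (7.93%) and 96 of 1248 in WT liver (7.69%). No member was at least 2-fold lower in fasted liver, against 2.10% of all genes in KO and 1.92% in WT. At 1.5-fold, 9 members were higher and 3 lower in KO liver, against 7.16% and 6.47% of all genes, and 12 were higher and 1 lower in WT liver, against 6.14% and 5.66%. Values above 0 were found for 27 of 38 members in KO, where 51.7% of genes were above 0, and for 25 of 38 in WT, where 51.4% were. The median member value was 0.27 in KO and 0.26 in WT liver, with all measured genes at 0.01 in both. Without normalization between arrays the median of all genes shifted by 0.43 in KO and 0.45 in WT, and fasting values below 0 remained for 3 members in KO, Haao, Hibadh and Cbs, and for 1 in WT, Haao. KO and WT fasting values share no pool, but they come from the same 2 arrays and their normalization. The 6 genes belong to 5 of the 9 amino acid groups.

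**Figure D1:**
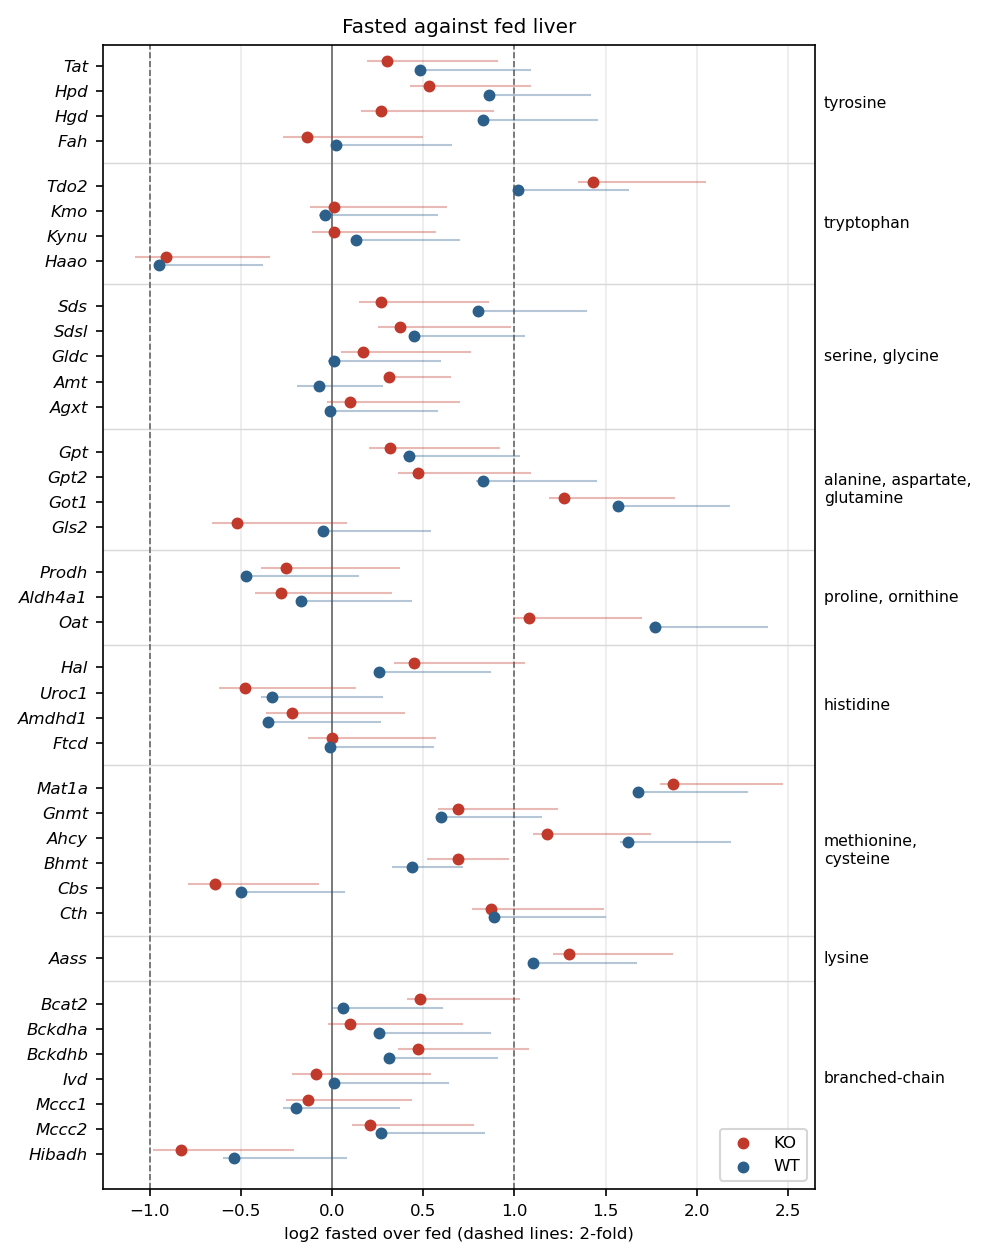
Log2 fasted over fed values of the 38 genes by amino acid group, with KO above WT for each gene. Points are the values in the text, 1 pool per group, and lines run over all processing alternatives tried, so they are not errors. The points of Mat1a, Ahcy, Tdo2, Aass, Got1 and Oat lie beyond the dashed line at 1 in both genotypes, and Haao lies lowest at -0.91 in KO and -0.95 in WT.

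Genes of methionine breakdown were the group with the highest median fasting value among those with more than 1 gene, 0.78 in KO and 0.75 in WT liver. Methionine is turned into S-adenosylmethionine by Mat1a, the liver form of methionine adenosyltransferase. Mat1a had a log2 signal of 15.37 in fasted and 13.49 in fed KO liver, against 15.30 in fasted and 13.62 in fed WT liver. Its fasted pools therefore lay close together and far above the fed pools, 3.66-fold higher in KO and 3.21-fold higher in WT. It ranked 46 of 11785 genes in KO and 54 of 11441 in WT liver. Ahcy, which splits S-adenosylhomocysteine into homocysteine and adenosine, was at 11.69 fasted and 10.51 fed in KO liver, against 12.10 fasted and 10.49 fed in WT liver. The fed pools were alike and the fasted WT pool was the highest, so the fasting value was 2.27-fold in KO and 3.07-fold in WT. A further Ahcy probe gave 1.17 in KO and 1.75 in WT on the log2 scale, close to 1.18 and 1.62 for the brighter one.

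The rest of the methionine group was split. Cth, which makes cysteine from cystathionine, was 1.83-fold higher in fasted KO and 1.85-fold higher in fasted WT liver, just under the 2-fold line, and its other probe was at log2 0.91 in KO and 1.03 in WT. Gnmt, which spends S-adenosylmethionine on glycine, was at 0.69 in KO and 0.60 in WT. Bhmt, which remethylates homocysteine with betaine, had 3 probes that did not give the same size: 0.69, 0.27 and 0.58 in KO liver and 0.44, 0.13 and 0.44 in WT liver. Cbs, the enzyme just before Cth, which joins homocysteine to serine, went the other way, at -0.64 in KO and -0.50 in WT. Cbs and Cth, neighbours in the route to cysteine, thus differed in sign in both genotypes.

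Oat, the mitochondrial ornithine aminotransferase that sends ornithine towards glutamate, had the largest fasting value of the 38 in WT liver. Its log2 signal was 14.02 in fasted and 12.94 in fed KO liver, against 13.86 in fasted and 12.09 in fed WT liver. The fed WT pool was the low one, the fed KO pool lay between, and the fasted pools were close to each other. The fasting value was 2.12-fold in KO and 3.41-fold in WT, rank 244 and rank 39 among the measured genes. Prodh, which oxidises proline, and Aldh4a1, which completes the route from proline to glutamate, had values below 0. Prodh was at -0.25 in KO and -0.47 in WT, and Aldh4a1 at -0.28 in KO and -0.17 in WT.

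Among the aminotransferases, Got1 stood out. It is the cytosolic aspartate aminotransferase and part of the malate-aspartate shuttle. Its log2 signal was 14.28 in fasted and 13.00 in fed KO liver, against 14.67 in fasted and 13.10 in fed WT liver. Both fasted pools were above both fed pools, with the fasted WT pool highest, and the fasting value was 2.41-fold in KO and 2.96-fold in WT. Gpt2, the mitochondrial alanine aminotransferase, was at 0.47 in KO and 0.83 in WT, and Gpt, the cytosolic one, at 0.32 in KO and 0.42 in WT. Gls2, the liver glutaminase that releases ammonia from glutamine, was at -0.52 in KO and -0.05 in WT.

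Tdo2 opens the indole ring of tryptophan and is the rate-limiting step of the kynurenine route. Its log2 signal was 13.28 in fasted and 11.85 in fed KO liver, against 13.07 in fasted and 12.06 in fed WT liver. The KO pools were the highest and the lowest of the 4, so fasting gave 2.70-fold in KO and 2.02-fold in WT. The WT value, 1.02 on the log2 scale, sat at the 2-fold line and was no longer past it with arrays centred on the median of their measured spots, which left 5 members past it in WT. Downstream, Haao, which cleaves hydroxyanthranilate, was the lowest of all 38 genes in fasted liver, 1.88-fold lower in KO (log2 -0.91) and 1.93-fold lower in WT (log2 -0.95). Kmo, kynurenine monooxygenase, was at 0.01 in KO and -0.04 in WT by its brighter probe and at 0.46 and 0.49 by the dimmer one. Kynu, kynureninase, was at 0.01 in KO and 0.13 in WT, and its other probe at 0.14 in KO and 0.42 in WT. Tdo2, at the start of this route, and Haao, further along it, thus lay on opposite sides of 0 in both genotypes.

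Aass carries the opening steps of lysine breakdown in mitochondria. Its log2 signal was 14.83 in fasted and 13.54 in fed KO liver, against 14.51 in fasted and 13.41 in fed WT liver. The fasted pools were above the fed pools, 2.45-fold in KO and 2.14-fold in WT.

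Tyrosine breakdown had no gene past 2-fold. Its median fasting value was 0.28 in KO and 0.66 in WT liver. Hpd, hydroxyphenylpyruvate dioxygenase, was the furthest of the group, with log2 signals of 14.59 in fasted and 14.05 in fed KO liver, against 15.03 in fasted and 14.17 in fed WT liver. Its fasted WT pool was the highest and the fed pools were close together, for fasting values of 0.53 in KO and 0.86 in WT. Hgd, homogentisate dioxygenase, had fasting values of 0.27 in KO and 0.83 in WT. Tat, the aminotransferase that starts the route, was at 0.30 in KO and 0.48 in WT, and Fah, which ends it, at -0.14 in KO and 0.02 in WT. All 4 fasting values were smaller in KO than in WT liver.

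In the serine and glycine group, Sds, the dehydratase that makes pyruvate from serine, had log2 signals of 12.22 in fasted and 11.95 in fed KO liver, against 13.04 in fasted and 12.24 in fed WT liver. The fasted WT pool stood above the other 3, and the fasting value was 0.27 in KO and 0.80 in WT. Sdsl, the related serine dehydratase-like enzyme, was at 0.37 in KO and 0.45 in WT. Gldc, a subunit of the glycine cleavage system, was at 0.17 in KO and 0.01 in WT, and Amt, another of its subunits, at 0.31 in KO and -0.07 in WT. The Amt probe was dim, at 7.41 in fasted KO and 7.31 in fasted WT liver and at 7.11 in fed KO and 7.38 in fed WT liver. Agxt, which turns glyoxylate into glycine, was at 0.10 in KO and -0.01 in WT.

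The histidine route lay near 0, with medians of -0.11 in KO and -0.17 in WT liver. Hal, histidine ammonia-lyase, had log2 signals of 13.37 in fasted and 12.92 in fed KO liver, against 13.81 in fasted and 13.55 in fed WT liver. Both WT pools were above both KO pools, the fasted KO pool lying nearest to the fed WT pool. Its fasting value was 0.45 in KO and 0.26 in WT. Uroc1, urocanate hydratase, was at -0.48 in KO and -0.33 in WT, and Amdhd1, imidazolonepropionase, at -0.22 in KO and -0.35 in WT. Ftcd, which passes the last fragment to folate, was at 0.00 in KO and -0.01 in WT.

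The 7 branched-chain genes had a median fasting value of 0.10 in KO and 0.06 in WT liver. Hibadh, a dehydrogenase of valine breakdown, had log2 signals of 12.74 in fasted and 13.57 in fed KO liver, against 13.15 in fasted and 13.69 in fed WT liver. The fasted pools were the low ones, 1.78-fold lower in KO and 1.45-fold lower in WT. Bckdha and Bckdhb, the paired catalytic subunits of the branched-chain ketoacid dehydrogenase, were at 0.10 and 0.47 in KO and at 0.26 and 0.31 in WT. Bcat2 was at 0.48 in KO and 0.06 in WT. The leucine genes Ivd, isovaleryl-CoA dehydrogenase, and Mccc1 and Mccc2, the subunits of methylcrotonyl-CoA carboxylase, ran between -0.13 and 0.21 in KO and between -0.20 and 0.27 in WT.

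**Figure D2:**
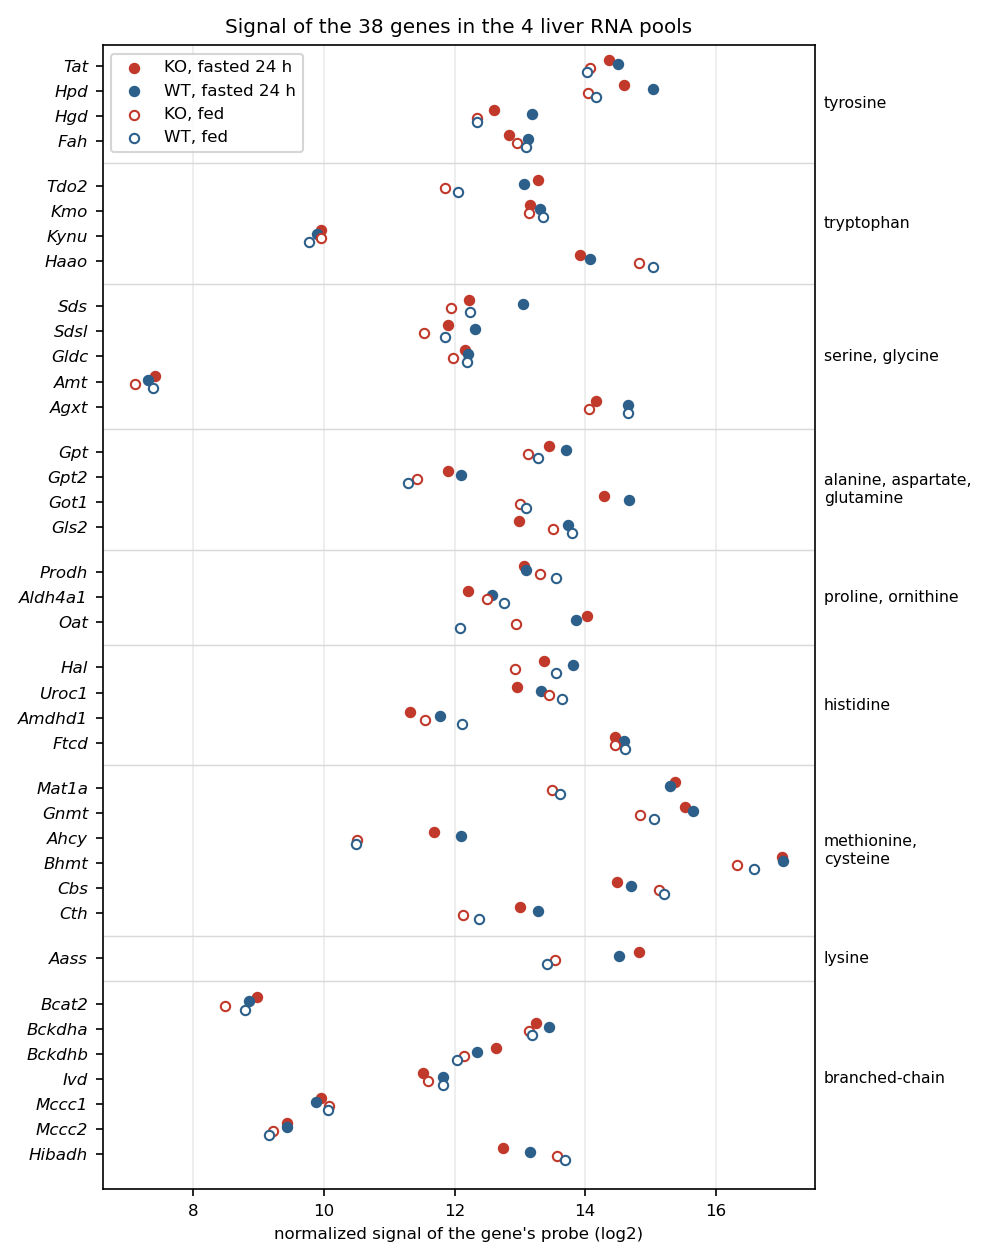
Normalized log2 signal of each gene's probe in the 4 pools, 1 value per pool, filled for fasted and open for fed, red for KO and blue for WT. Positions can be compared within a gene only. For Mat1a, Got1, Oat, Tdo2, Aass and Ahcy both filled points lie right of both open ones, and for Sds the fasted WT point at 13.04 stands apart.

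Between genotypes, no member was at least 2-fold apart in either feeding state. In fasted liver the background was 0.359% of 12262 measured genes at least 2-fold higher and 0.432% lower in KO, and in fed liver 0.158% of 11377 higher and 0.396% lower. The values leaned to the KO-low side: 28 of 38 members were below 0 in fasted liver, where 47.3% of all genes were, and 29 of 38 in fed liver, where 46.9% were. The median was -0.20 fasted and -0.18 fed, with all genes at 0.01. This lean in sign depended on the loess step: centred on the median of all spots, 0 of 38 members were below 0 in either state, and centred on the measured spots 8 fasted and 5 fed. Centring on all spots shifted the all-gene median by 0.56 fasted and 0.76 fed. The members' median minus that of all genes was -0.21 fasted and -0.19 fed under loess, but 0.10 fasted and 0.23 fed under both centrings. The median of all 38 members minus that of other genes above log2 12 was -0.17 to -0.21 fasted and -0.16 fed under loess and both centrings. Only 28 of the 38 were above log2 12 themselves, so this comparison is not matched for brightness. Those 28 had medians of -0.20 fasted and -0.18 fed under loess, against -0.03 and -0.02 for other genes above log2 12. Below 0 were 82.1% of them fasted and 85.7% fed, against 56.7% and 54.8% of those other genes.

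**Figure D3:**
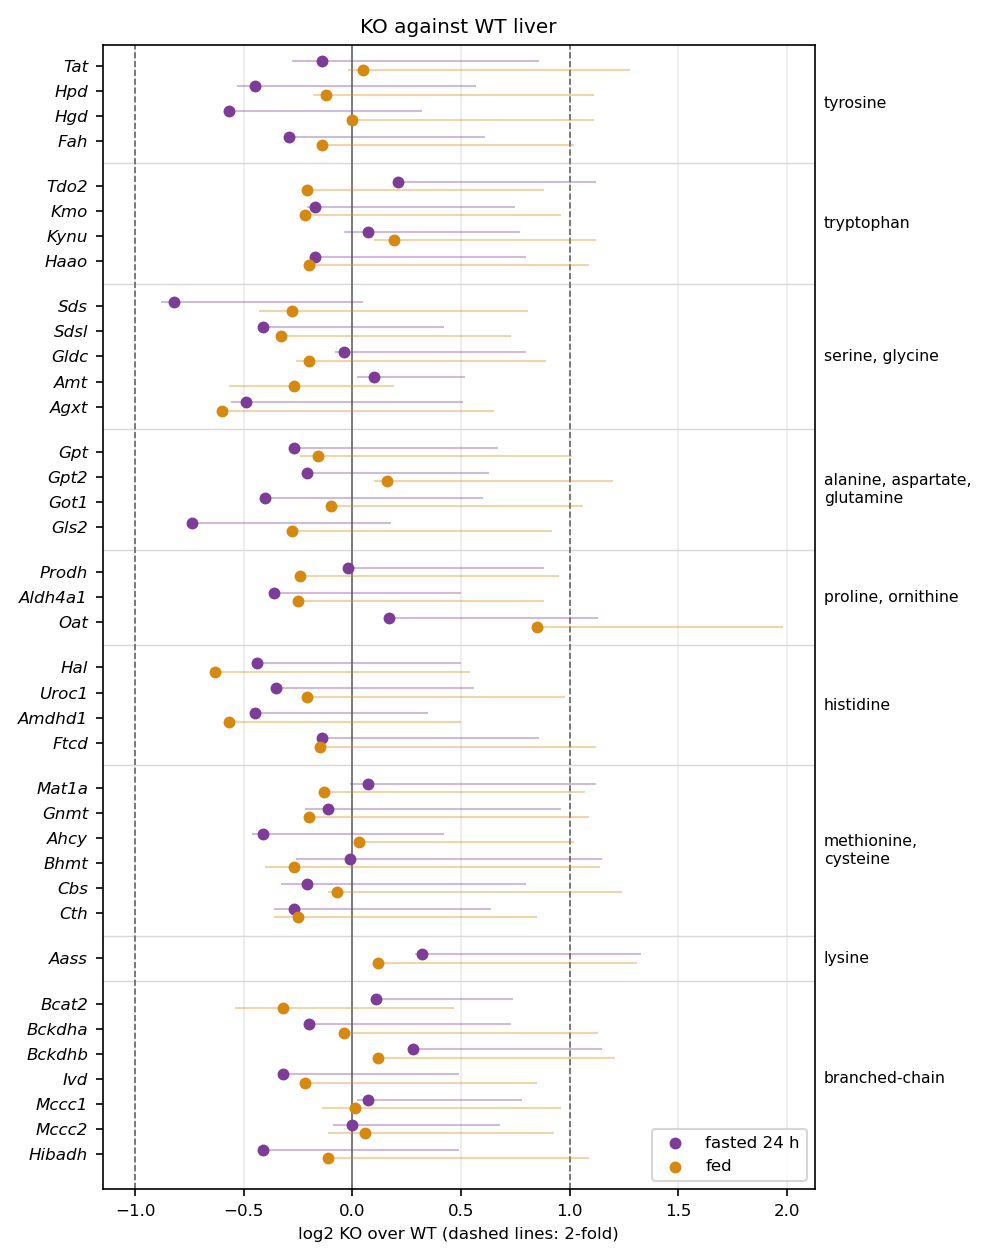
Log2 KO over WT values of the 38 genes by amino acid group, fasted above fed for each gene. Points are the values in the text and lines run over all processing alternatives tried, including the centring on all spots that put all 38 genes above 0. No point passes the dashed lines at -1 and 1, Sds being lowest at -0.82 fasted and Oat highest at 0.85 fed.

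Sds was the lowest member in fasted KO liver, 1.77-fold lower than in fasted WT liver (log2 -0.82), rank 96 from the bottom of 12262 genes. The scanner software gave -0.88 with an error of 0.22 for this ratio. In fed liver Sds was at -0.28. With arrays centred on all spots its fasted value was 0.05. Gls2 came next at -0.74 fasted and -0.28 fed, with a scanner error of 0.21 fasted. These were the 2 members past 1.5-fold in fasted liver, both lower in KO, against 1.48% of all genes that were as much lower. Of other genes above log2 12, 49 of 1248 were as much lower. All 4 tyrosine genes were below 0 in fasted liver under loess, from Hgd at -0.57 and Hpd at -0.45 to Fah at -0.29 and Tat at -0.14. In fed liver the same genes lay between -0.14 and 0.05.

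Histidine genes had lower values in KO than in WT liver, fasted and fed, with a median of -0.40 fasted and -0.39 fed and all 4 below 0. Hal was at -0.44 fasted and -0.63 fed, Amdhd1 at -0.45 and -0.57, Uroc1 at -0.35 and -0.21, and Ftcd at -0.14 and -0.15. Agxt was alike in size, at -0.49 fasted and -0.60 fed. These are signs under loess; with arrays centred on all spots Hal was at 0.50 fasted and 0.54 fed, below the bright genes' median of 0.89 and 1.17 in that setting. Sdsl was at -0.41 fasted and -0.33 fed. Hal and Agxt were the 2 members past 1.5-fold lower in fed KO liver, where 1.41% of all genes were as much lower. Of other genes above log2 12, 33 of 1249 were as much lower.

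Oat was the exception in fed liver. At 12.94 in fed KO and 12.09 in fed WT liver it was 1.81-fold higher in KO (log2 0.85), rank 31 from the top of 11377 genes. The scanner software gave 0.95 with an error of 0.22. Oat was the only member past 1.5-fold higher there, where 1.33% of all genes were, and no other member exceeded 0.19, the value of Kynu. Of other genes above log2 12, bright like Oat, 53 of 1249 were past 1.5-fold higher in fed KO liver. After fasting, Oat was at 0.17. Aass was the highest member in fasted liver, at 0.32, followed by Bckdhb at 0.28 and Tdo2 at 0.21; in fed liver these were at 0.12, 0.12 and -0.21.

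The fasted minus the fed log2 KO over WT ratio asks whether the genotype difference changed with feeding, and a dye effect of a gene that is the same on both arrays cancels in it. No member was 2-fold apart, against 0.771% of 11290 genes higher and 0.602% lower. The median was -0.07, with all genes at -0.01, and 21 of 38 members were below 0, where 51.2% of all genes were. Oat was lowest at -0.69, the only member past 1.5-fold, its KO over WT value being 0.17 fasted and 0.85 fed. As much lower were 1.98% of all genes, and 51 of 1248 other genes above log2 12. Hgd was at -0.57, Sds at -0.54, Gls2 at -0.46 and Ahcy at -0.44. All 4 tyrosine genes and all 4 of the alanine, aspartate and glutamine group were below 0, with medians of -0.25 and -0.33. Above 0 were 3 of 4 tryptophan and 3 of 4 histidine genes. Among these, Kmo at 0.05, Haao at 0.04 and Ftcd at 0.01 lay within the median spot SD of 0.10. The other Kmo probe was at -0.04. At the other end were Tdo2 and Bcat2 at 0.42 and Amt at 0.37. The median SD between repeated spots was 0.10 for this quantity, and its 95th percentile was 0.17, but it says nothing of the spread between mice.

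**Figure D4:**
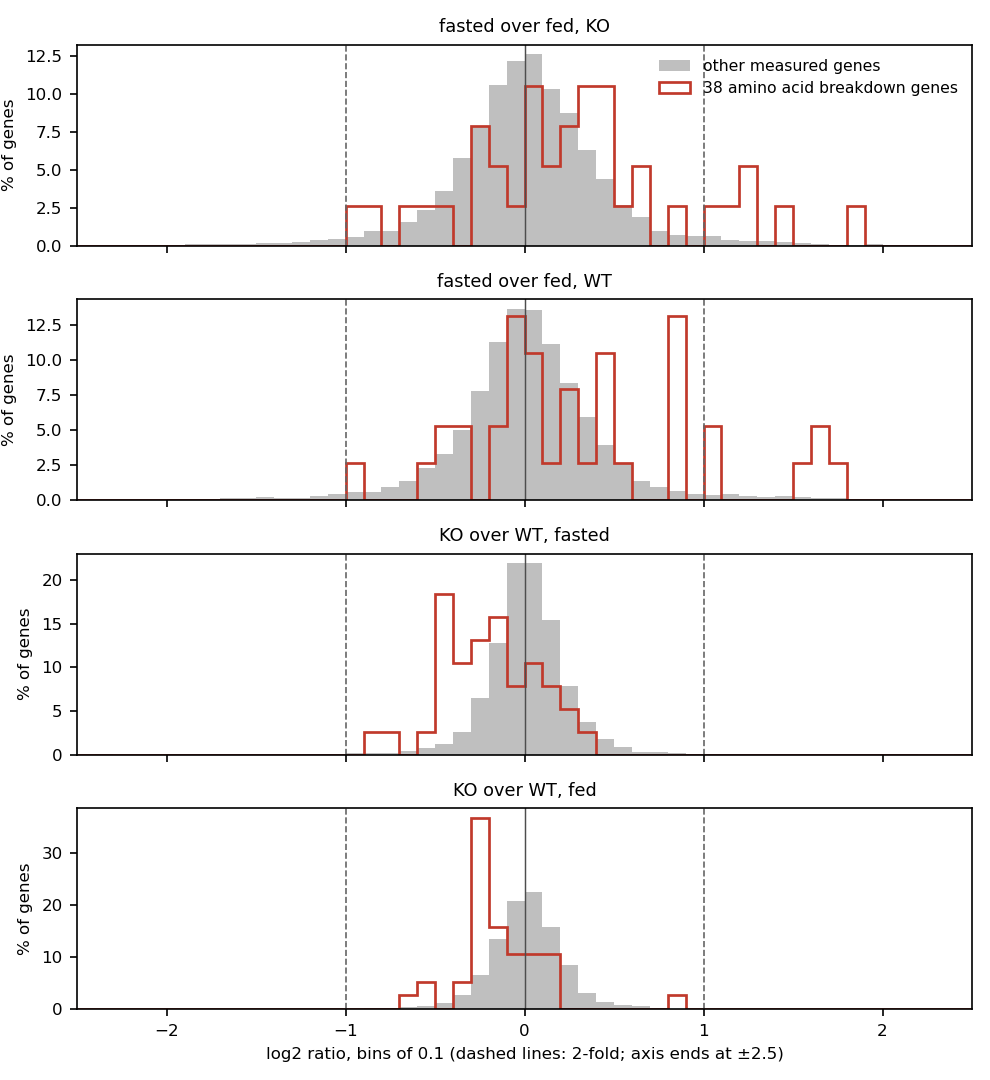
Distribution of log2 values in 4 comparisons, as percent of genes per bin of 0.1, for the 38 amino acid breakdown genes (red line) and the other measured genes (grey). In both fasting panels 6 of the 38 lie right of the dashed line at 1, and in both genotype panels the red line peaks left of 0. The medians there are -0.20 fasted and -0.18 fed.

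Other genes of amino acid breakdown, 54 measured of 61 on the array, were mostly less than 2-fold apart between fasted and fed liver. None was 2-fold apart in KO liver, where 2.59% of all genes were higher and 2.10% lower. In WT liver 1 was higher (1.85%) and 2 were lower (3.70%), against 2.36% and 1.92% of all genes. The higher one was Ppm1k, the phosphatase that switches on branched-chain ketoacid dehydrogenase, at 0.90 in KO and 1.42 in WT liver. The lower ones were Ethe1, a sulfide-oxidising dioxygenase, at -0.69 in KO and -1.23 in WT, and Acmsd, which diverts the tryptophan route from NAD synthesis, at -0.91 in KO and -1.02 in WT. The list's median fasting value was 0.04 in KO and 0.01 in WT. Its KO over WT median was -0.07 fasted and -0.11 fed, with no gene 2-fold apart.

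Of 27 amino acid carriers of hepatocytes, all measured, 2 were at least 2-fold higher in fasted KO liver (7.41%) and 3 in fasted WT liver (11.1%). Of all measured genes, 2.59% in KO and 2.36% in WT were as much higher. Slc25a22, a mitochondrial glutamate carrier, was at 1.29 in KO and 1.27 in WT, and Slc1a4, a carrier of neutral amino acids, at 1.01 in KO and 1.07 in WT. Slc25a13, the aspartate-glutamate carrier that works with Got1 in the malate-aspartate shuttle, was at 0.99 in KO and 1.04 in WT. The taurine carrier Slc6a6 was the 1 carrier at least 2-fold lower in fasted KO liver, at -1.24 in KO and -0.96 in WT. In KO liver 2.10% of all genes were as much lower. No carrier was 2-fold apart between genotypes.

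Among 20 hormone-response genes and regulators, 1 of 18 measured was at least 2-fold higher in fasted KO liver and 2 of 18 in fasted WT liver. Of all measured genes, 2.59% in KO and 2.36% in WT were as much higher. Fkbp5, a known glucocorticoid target, was at 1.20 in KO and 1.57 in WT. Per1, which responds to glucocorticoids and cAMP, had log2 signals of 10.41 in fasted and 10.09 in fed KO liver, against 10.99 in fasted and 9.47 in fed WT liver. Its fasting value was thus 0.32 in KO and 1.51 in WT. Its fasted minus fed ratio of -1.19 was the only one past 2-fold in the list, where 0.602% of all genes were as much lower. In fasted liver 16 of 19 measured regulators were below 0 in KO over WT, with a median of -0.26, where 47.3% of all genes were below 0. In fed liver it was 8 of 18, with a median of 0.04, where 46.9% of all genes were. These are signs under loess, on which the members' signs depended. The part of these regulators in the members' values was not tested.

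Markers of zones and of other cells moved with some of these comparisons. Pericentral hepatocyte markers had a median fasting value of -0.54 in KO and -0.46 in WT liver, and KO over WT medians of 0.28 fasted and 0.18 fed. In both genotypes 8 of 10 measured had fasting values below 0, where 48.3% (KO) and 48.6% (WT) of all genes did. Periportal markers, the zone where much amino acid breakdown is known to sit, had fasting medians of 0.35 in KO and 0.31 in WT and KO over WT medians of -0.04 fasted and -0.20 fed. Single periportal markers ran far to both sides of these medians: Pck1, the enzyme that commits carbon to glucose, had a fasting value of 0.67 in KO and 2.01 in WT and was at -1.13 in fasted KO over WT, and Cdh1 had fasting values of -0.92 in KO and -1.58 in WT. All 11 Kupffer cell markers were below 0 in fed KO over WT (median -0.39) and above 0 in fasted over fed KO liver (median 0.55). Of all genes, 46.9% were below 0 in the former comparison and 51.7% above 0 in the latter. The summed signal of the 11 markers was 19511 in fasted KO and 18701 in fasted WT liver, and 13782 in fed KO and 18706 in fed WT liver. Sinusoidal endothelial markers had fasting medians of 0.58 in KO and 0.29 in WT, and KO over WT medians of 0.06 fasted and -0.10 fed. Stellate cell markers had fasting medians of -0.18 in KO and -0.33 in WT, with 2 of 8 measured at least 2-fold lower in each genotype, the collagens Col1a1 and Col3a1. Of all genes, 2.10% in KO and 1.92% in WT were as much lower. Of 7 bile duct markers Krt19, Sox9 and Spp1 were well above background in all 4 pools, whereas Krt7, Epcam and Cftr were not in any. Of 7 pancreatic acinar markers Amy2a5 and Ctrb1 were in all 4 pools, Amy2a5 with a fasting value of 0.59 in KO and 0.96 in WT, whereas Cela2a, Prss2, Pnlip and Cpa1 were not in any. The part of these cell types in the members' values was not tested.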

How the data were processed

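Pooled total RNA of liver was labelled with Cy5 (CREBH KO) or Cy3 (WT), per the labels, and hybridised to 2 arrays of the same slide, read in the same scan. The authors deposited the output of Agilent Feature Extraction 10.10.1.1, per the file headers. Spot and local background intensity, deposited as pixel medians without normalization, were used. Processed intensity, the log10 ratio of Cy5 over Cy3 with its error on the same scale, and its p-value by the software's error model for a spot were deposited as the scanner software wrote them, per the file headers. These p-values were not used. A value table deposited on the log2 scale differed from the scanner ratios by at most 0.00500, with column medians of 0.00, so its scale, centring and direction are those of KO over WT.

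With limma 3.58.1 in R 4.3.3, normexp (offset 50), loess within arrays and Aquantile between arrays were run on all gene spots, with control spots at weight 0 and flagged spots left out. Each array had 59305 gene spots, of which 45.8% (KO) and 45.9% (WT) were well above background when fasted and 42.9% (KO) and 39.9% (WT) when fed. Of 55681 probes 26762 were named through RefSeq accessions, for 20284 genes. The arrays' grid names mouse build mm9, so the GRCm38.p6 gene table served for names only. The 38 members had 45 probes, 32 with 1 probe, and the brightest probe stands for a gene. A gene was measured when at least 50% of its spots were well above background in each channel compared. The offset compresses the log ratio of dim probes. The steps were tested on simulated arrays with 200 spots changed by more than 2-fold. Of these, 151 (fasted) and 145 (fed) came out at least 2-fold apart, and 0 unchanged spots did. The other changed spots fell short of 2-fold, so the steps can miss changes of that size. Unchanged spots held only small technical noise and a dye bias, with no difference between pools. A 2-fold call among them was therefore hardly possible, and their count says nothing of false calls in the real data. Only the KO over WT ratio within an array was scored, so fasted over fed values and the step between arrays were not tested.

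No test was run, since each group was 1 pool, and the number of arrays limits the precision. Members and gene lists were chosen with earlier results of these data known. All 38 members are named; all 4 pool values are given for members at least 2-fold apart and for the furthest of each amino acid group, and for Amt and Per1, chosen after their values were seen. Genes of the lists of other breakdown enzymes, carriers and regulators are named where they passed 2-fold, and markers are named to check the tissue, several of them after their values were seen. Alternatives were the offset, centring in place of loess, the step between arrays, scanner-processed signals, flagged spots, the dim filter, the probe rule, a 1.5-fold rule and, chosen after seeing the data, centring on bright genes.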

Additional observations from a re-analysis of the deposited data

Results flagged for a closer look

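Tdo2 was flagged because its KO over WT value had opposite signs in the feeding states, 0.21 fasted and -0.21 fed, each beyond the 95th percentile of the spot SD of 0.13. The fasted minus fed difference was 0.42. Over the processing alternatives the difference ran between 0.24 and 0.46, but the opposite signs were lost with arrays centred on measured spots (0.62 fasted and 0.17 fed) and on all spots (1.12 and 0.88). Gpt2 was flagged for the reverse pattern, -0.21 fasted and 0.16 fed, a difference of -0.36, which ran between -0.57 and -0.31; its fasted value was below 0 in 8 of 10 settings and reached 0.63, while its fed value ran between 0.10 and 1.20. Neither difference was tested, since each group was 1 pool, and both are smaller than 2-fold. For Tdo2 the scanner software gave 0.24 fasted with an error of 0.21, and -0.19 fed with an error of 0.20. For Gpt2 it gave -0.21 fasted and 0.10 fed, each with an error of 0.20. No such ratio was far beyond its error, so the opposite signs are uncertain in both genes.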

How the results depend on the processing

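No paired analysis was possible because each group was a single pool with no replicate number. The numbers of members at least 2-fold apart were within 1.5 times those reported in 42 cases and moved in 10. With a 1.5-fold rule they were 12 for fasting in KO and 13 in WT, 2 for KO over WT fasted and 3 fed, and 1 for the difference of ratios. Centred on all spots, 6 were apart in KO over WT fasted and 20 fed, all higher. Centred on measured spots, 1 was apart fed, Oat. Without normalization between arrays, 13 were higher with fasting in KO and 15 in WT; fewer steps leave the arrays' overall difference in the values. In every other setting the fasting calls kept the same 6 genes, except that Tdo2 was lost in WT when centred on measured spots and Haao joined as lower in KO when centred on all spots. Of 470 values of the 10 members given in all 4 pools by rule, 372 stayed within the technical spread, 98 moved and 0 turned round a value past 2-fold. Dropping the dim filter or keeping flagged spots could change no member value or count, as all members were measured and 0 member spots were flagged. Averaging probes could move only Ahcy among these 10, as each of the others had 1 probe. The numbers that stayed the same therefore include values and counts that were fixed beforehand. Only values past 2-fold as reported could count as turned round. Smaller ones did change sign, such as Hal in fed KO over WT, from -0.63 to as much as 0.54. Over all measured genes, the number 2-fold apart in KO over WT was 97 fasted and 63 fed as reported, 956 and 3111 centred on all spots, 145 and 154 centred on measured spots, and 193 and 174 with scanner-processed signals. For fasting it was 552 in KO and 490 in WT as reported, 1243 and 1151 without normalization between arrays, and 1070 and 886 with scanner-processed signals. For the difference of ratios it was 155 as reported and 340 with scanner-processed signals. Nothing here can show differences between mice, and dim probes such as Amt understate a change.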
